A study of Mus musculus with 2 samples.

Results

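Histone genes were followed in polyadenylated RNA of mouse pluripotent cells in 2 states, with 1 library for each state. They were the 76 of 18032 listed genes whose symbol carries a histone prefix (Hist1h to Hist4h, H1f, H2a, H2b, H3f and the related forms). They fall into 63 replication-dependent genes (6 H1, 17 H2A, 16 H2B, 11 H3 and 13 H4) and 13 replacement variants (3 H1, 6 H2A, 1 H2B and 3 H3). The cEpiSC library came from epiblast stem cells made in culture from embryonic stem cells. The starting cells were put on fibronectin, kept for 24 h in 2iLIF, and then given N2B27 medium holding activin A (20 ng/ml) and FGF2 (12 ng/ml) for 2 days. The mESC library came from the line ES-E14TG2a, labelled WT, in 2iLIF, which is N2B27 with PD0325901 (1 µM, an inhibitor of FGF and ERK signalling), CHIR99021 (3 µM, an inhibitor of GSK3) and LIF (100 units/ml). The cEpiSC sample is derived from these cells, so both libraries stand for 1 line. RNA was selected on oligo(dT) beads, which hold RNA with a poly(A) tail.

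Replication-dependent histone genes supply the proteins that package newly copied DNA and are transcribed mainly during S phase. Their messages normally lack introns and a poly(A) tail: they end just after a short stem-loop, which is bound by the stem-loop binding protein SLBP. Replacement variants such as H3.3, H2A.Z and macroH2A are made throughout the cell cycle from genes whose messages carry poly(A) tails, and take specialised places in chromatin. An oligo(dT) library is therefore made to recover the variants and not the tailless stem-loop messages.

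The stem-loop is shown first, because it is the known end of replication-dependent messages. A 16-base pattern, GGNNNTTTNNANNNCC with the letters 3 to 5 complementary to the letters 12 to 14, was sought on the sense strand of the GENCODE vM21 transcripts. It was present in 43 of 63 replication-dependent genes, in 2 of 13 variants (H2afx and H2bfm) and in 25 of 17585 other listed genes with a transcript (0.142%). A missing match does not show that a gene lacks a stem-loop. Some genes without a match, Hist1h2ai and Hist1h3h among them, have GENCODE transcripts shorter than their RefSeq spans. The stem read GGCTCT in all 32 matching H1, H2A, H2B and H3 genes, whereas the matching H4 genes had GGCCCT (9 genes) or GGTCCT (2 genes). The following are the DNA-sense sequences of the most abundant H2A genes, of the H2B gene with the highest ratio among those at 1 CPM or more, of an H4 gene and of H2afx; capitals mark the stem arms and the lower-case letters between them the loop.
Hist1h2ao: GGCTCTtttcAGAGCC
Hist1h2ap: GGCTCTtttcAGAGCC
Hist1h2bk: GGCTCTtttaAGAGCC
Hist1h4d: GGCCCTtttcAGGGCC
H2afx: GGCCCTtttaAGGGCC
On GRCm38 these lie at chr13:21810898-21810913 on the plus strand (Hist1h2ao), chr13:21833029-21833044 on the minus strand (Hist1h2ap), chr13:22036300-22036315 on the plus strand (Hist1h2bk), chr13:23581950-23581965 on the plus strand (Hist1h4d) and chr9:44335240-44335255 on the plus strand (H2afx). Each falls after the coding sequence, in the 3′ UTR part of an exon, as did all 44 matches that could be placed on the genome. A match is a description of letters and does not show that the site is used.

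Most RefSeq models of replication-dependent genes with a placed match end with the stem-loop. The lengths behind the deposited values match the RefSeq models for the abundant genes. Of the 42 replication-dependent genes whose match could be placed on the genome, 40 had a RefSeq gene end at most 10 bases beyond it, with a median of 5 bases over the 42. The effective length, worked out from each count and its FPKM, allows for fragment size; it was 458 bases for Hist1h2ao, whose RefSeq span is 552 bases. For the 5 most abundant replication-dependent genes the span exceeded this length by 93.5 to 93.6 bases. Of these, Hist1h2ah and Hist1h2ai had no placed match. Some models without a placed match are long: Hist2h2be spans 2667 bases, with an implied length of 2586 bases in cEpiSC and 2629 bases in mESC. H2afx has a RefSeq end 822 bases past its stem-loop, and its implied length of 1270 bases falls short of its 1363-base span by 93.0 bases, so the model behind its count was the longer one. The length does not show which form of its RNA gave the reads. Implied lengths were nearly the same in both libraries: the ratio of cEpiSC over mESC lay between 0.984 and 1.00 for the 8 replication-dependent genes with 10 or more counts in each and between 0.998 and 1.00 for 10 variants.

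The libraries held 19956735.82 estimated counts (cEpiSC) and 19843730.92 (mESC), so that 1 CPM (a TMM-scaled count in every 1000000) equals 20.5 counts in cEpiSC and 19.4 in mESC. Genes of the naive state were lower in cEpiSC by the size rule (5 of 7, 0 of 7 higher) and genes of the primed state higher (5 of 6), and of Pou5f1, Sox2, Nanog and Lin28a 1 of 4 was higher and none lower, which is the direction of the labels. Of 7 fibroblast markers 3 reached 1 CPM, with a summed level over the list of 13.1 CPM in cEpiSC and 16.5 CPM in mESC; Thy1 was higher in cEpiSC (4.59 against 1.09 CPM) and Pdgfrb lower (5.86 against 12.6 CPM). The 5 endoderm markers summed to 29.6 CPM in cEpiSC and 75.1 CPM in mESC, mostly through Dab2 (16.6 against 59.8 CPM); Gata4 was also lower and none was higher. The 3 germ cell markers summed to 103 CPM in cEpiSC and 209 CPM in mESC, mostly through Dazl (43.6 against 180.9 CPM), while Ddx4 was higher (29.1 against 10.2 CPM) and Sycp3 was within 2-fold (30.6 against 17.98 CPM). The part of such cells in the values below was not tested. With 1 library per state there is no replicate error and no p-value was computed. Genes that reached 1 CPM in either library were tested, and a call of higher or lower means a ratio of 2-fold or beyond; bracketed 95% intervals cover counting error only. Fewer cells of a type and less RNA per cell cannot be told apart in such bulk samples.

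Histone genes together took 2537 counts in every 1000000 [2515 to 2560] in cEpiSC and 2193 [2172 to 2213] in mESC, a ratio of 1.16 [1.14 to 1.17] once scaled by library totals. Variants made up most of it: 44285.13 counts in cEpiSC and 38171.91 in mESC, or 87.5% and 87.7% of all histone counts. Replication-dependent genes had 6351.96 counts in cEpiSC and 5339.52 in mESC, or 318 and 269 in every 1000000, a ratio of 1.18 [1.14 to 1.23]. They weighed more on the per-length scale, with 30.5% of summed histone TPM (counts scaled by length and depth) in cEpiSC and 30.3% in mESC. The share of the class was thus nearly the same in both libraries on either scale. The excess of cEpiSC was smaller on other scalings, at 1.11 for the TPM of all histone genes and 1.10 after TMM scaling, and the ratio was 0.977, on the other side of 1, when genes with counts that are not whole numbers were left out.

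Of the 76 genes, 19 reached 1 CPM in at least 1 library, and 4 of these were called (3 higher and 1 lower in cEpiSC), where 22.8% of the 13243 tested genes were (13.6% higher and 9.25% lower). The 3 higher ones were replication-dependent (3 of 9, 0 lower, 6 within 2-fold) and the lower one a variant (1 of 10, 0 higher, 9 within). The 3 higher genes reached 1 CPM in cEpiSC only, so the filter itself kept them for being high there, and nothing is drawn from their number. With them the median log2 ratio of the 9 genes was 0.55; the 6 genes that reached 1 CPM in mESC as well had a median of 0.32 and the 10 variants one of 0.23, beside -0.02 over all tested genes. Another 11 genes had 0 counts in both libraries: Hist1h1t, Hist1h2ac, Hist2h2ab, Hist1h2bf, Hist1h2bh, Hist2h3b, Hist1h4f, Hist1h4h, Hist1h4n, Hist2h4 and the variant H3f3c. A count of 0 allows up to 0.147 CPM in cEpiSC and 0.155 CPM in mESC. The remaining 46 genes (44 of them replication-dependent) had some counts but stayed below 1 CPM.

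**Figure D1:**
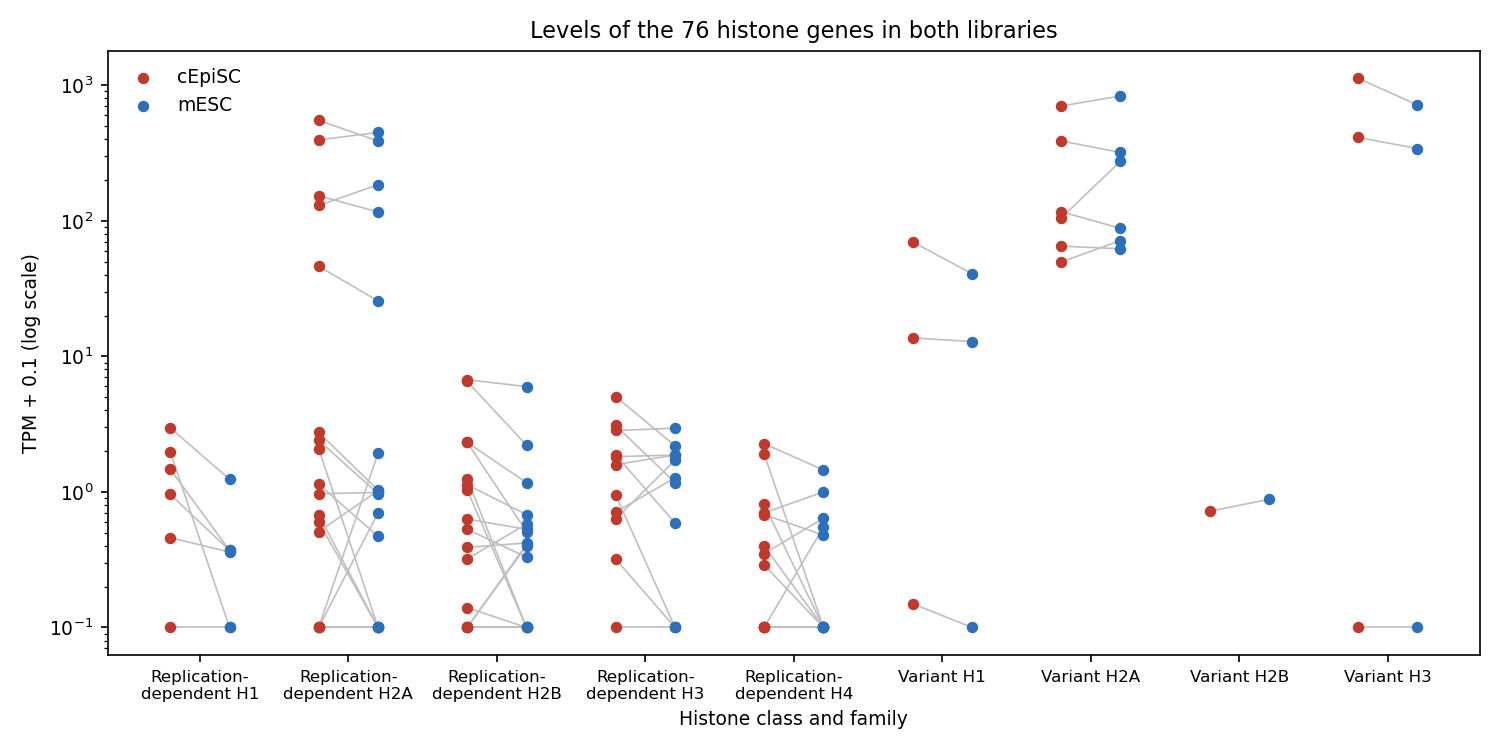
Level of each of the 76 histone genes as TPM plus 0.1 on a log axis, by class and family, with cEpiSC (red) left of mESC (blue) and a grey line joining the values of a gene; points at the bottom are genes listed at 0. Abundant genes are variants and 5 replication-dependent H2A genes, and no replication-dependent H1, H2B, H3 or H4 gene exceeds 6.61 TPM in cEpiSC or 5.89 TPM in mESC.

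Among replication-dependent genes, the counts were concentrated in 5 H2A genes: Hist1h2ao, Hist1h2ap, Hist1h2ad, Hist1h2ai and Hist1h2ah. These encode canonical H2A, a partner of H2B in the nucleosome, and lie in the large Hist1 cluster on chromosome 13. They were singled out after their values were seen, as those with over 100 counts in a library: the least of them had 232.25 counts in cEpiSC and 117.94 in mESC, and the next replication-dependent gene, Hist1h2bc, 49.39 and 40.28. They held 94.5% of the counts of the class in cEpiSC and 96.5% in mESC. On the per-length scale they summed to 1274 TPM in cEpiSC and 1161 TPM in mESC, more than H2afz, the H2A.Z gene, with 702 TPM in cEpiSC and 833 TPM in mESC.

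The 5 genes did not share a direction. Hist1h2ap (chr13:21833024-21833475) had 2322.21 counts, 113 CPM and 550 TPM in cEpiSC, against 1497.94 counts, 77.4 CPM and 387 TPM in mESC, a log2 ratio of 0.55 [0.46 to 0.65]. Hist1h2ao (chr13:21810367-21810918), its nearest copy, had 2134.39 counts, 104 CPM and 395 TPM in cEpiSC, against 2214.98 counts, 114 CPM and 448 TPM in mESC, a log2 ratio of -0.13 [-0.22 to -0.05]. The order of the pair was therefore reversed, with Hist1h2ap above Hist1h2ao in cEpiSC and below it in mESC. Their sum, which does not depend on how reads were split between them, was 4456.60 counts in cEpiSC and 3712.92 in mESC, a depth-scaled ratio of 1.19 [1.14 to 1.25].

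The other 3 were less abundant. Hist1h2ad (chr13:23574381-23574915) had 673.63 counts, 32.9 CPM and 129.6 TPM in cEpiSC, against 877.66 counts, 45.4 CPM and 184 TPM in mESC, a log2 ratio of -0.46 [-0.61 to -0.32]. Hist1h2ai (chr13:21716412-21716859) had 637.56 counts, 31.2 CPM and 153 TPM in cEpiSC, against 444.06 counts, 22.9 CPM and 116 TPM in mESC, a log2 ratio of 0.44 [0.27 to 0.62]. Hist1h2ah (chr13:22035122-22035643) had 232.25 counts, 11.3 CPM and 46.05 TPM in cEpiSC, against 117.94 counts, 6.10 CPM and 25.5 TPM in mESC, a log2 ratio of 0.88 [0.57 to 1.23]. Hist1h2ad was thus lower and the other 2 higher in cEpiSC, all within 2-fold, while their sum differed little, at 1543.44 counts in cEpiSC and 1439.66 in mESC, a depth-scaled ratio of 1.07 [0.992 to 1.15].

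Near-identical sequence limits these single-gene values. In GENCODE transcripts, 353 of the 381 windows of 100 bases in Hist1h2ao (92.7%) also occur in Hist1h2ap, and the shares of windows found in any other gene were 92.2% for Hist1h2ap, 88.4% for Hist1h2ai, 87.9% for Hist1h2ah and 63.6% for Hist1h2ad. The transcripts of Hist1h2ao, Hist1h2ai and Hist1h2ah are shorter than their RefSeq spans. These shares therefore leave out part of those spans and do not rank the genes. All 5 had counts that are not whole numbers, as can arise when a read is divided among genes that it fits. Values of a single gene in this group are therefore uncertain beyond their intervals, and the sums are the firmer measurement. The sums may not be free of such division either. Hist1h2ao holds 52.6% of the windows of Hist1h2ah, 46.6% of those of Hist1h2ai and 35.7% of those of Hist1h2ad. Reads could thus also be divided between the summed groups.

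Counts that are not whole were a general property of the class. Such a count (more than 0.005 from a whole number in either library) was found in 41 of the 65 histone genes with any count (63.1%), against 14.6% of the 16884 listed genes with any count. They were 38 of the 53 replication-dependent genes with any count (71.7%) and 3 of 12 variants, namely H2afx, H2afy2 and H3f3a. The 41 genes shared a median of 44.0% of their windows with another gene, and 40 of them shared at least 1. The 24 histone genes with whole counts above 0 shared a median of 1.36%, and 13 of them shared at least 1. H2afy2 was the gene with a count that is not whole and no shared window.

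**Figure D2:**
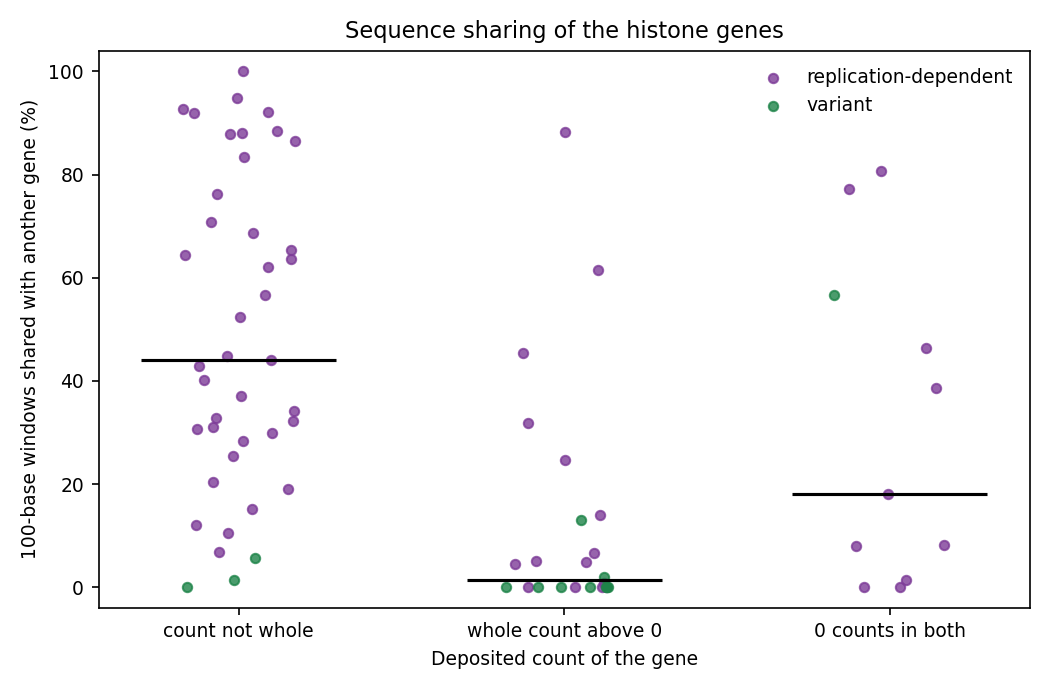
Percentage of the 100-base windows of each histone gene that also occur in another gene (y axis), for genes whose deposited count is not whole, is whole and above 0, or is 0 in both libraries; purple points are replication-dependent genes, green points variants, and black lines medians. The median is 44.0% among genes with counts that are not whole and 1.36% among those with whole counts above 0.

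Sums over some families lay within 0.02 of a whole number. Replication-dependent H2B genes summed to 134.00 counts in cEpiSC and 77.00 in mESC, H3 genes to 85.01 and 56.00, and H4 genes to 24.00 and 11.99. H2A genes alone summed to 6051.95 counts in cEpiSC and 5180.53 in mESC; with H2afx and without Hist3h2a, a choice made after the values were seen, the sums were 11856.98 counts in cEpiSC and 9547.00 in mESC. The summed level of this larger group had a depth-scaled ratio of 1.23 [1.20 to 1.27]. Very uneven counts occurred among low genes, chosen here after their values were seen. Hist2h2aa2, all of whose windows occur elsewhere, had 11.80 counts in cEpiSC and 0 in mESC, while Hist2h2aa1 had 0 in cEpiSC and 3.00 in mESC. Hist1h2bq and Hist1h2br, with 94.8% and 86.4% of windows shared, were both listed at 9.54 counts in cEpiSC, and at 2.14 and 4.72 in mESC.

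The 58 replication-dependent genes outside the 5 abundant ones had 351.92 counts in all in cEpiSC and 186.94 in mESC, 17.6 in every 1000000 [15.8 to 19.6] against 9.42 [8.12 to 10.9], a ratio of 1.87 [1.56 to 2.25]. Linker H1 genes carried part of this: without them the ratio of the low genes was 1.70 [1.40 to 2.06]. The 25 replication-dependent genes with whole counts in both libraries (10 of them at 0) had 97 counts in cEpiSC and 45 in mESC, a ratio of 2.14 [1.49 to 3.12]. A whole count does not exclude that reads were divided: Hist2h2aa1 has whole counts, and 88.3% of its windows occur in other genes. The 6 H1 genes held 57 of these counts in cEpiSC and 14 in mESC; the other 19 had 40 in cEpiSC and 31 in mESC, a ratio of 1.28 [0.783 to 2.12], which is within counting error of no difference, with 6 of them higher in cEpiSC and 4 in mESC. Of the 54 genes that did not reach 1 CPM, 31 had more counts in cEpiSC, 13 had more in mESC and 10 had none, so that 70.5% of those that differed had more in cEpiSC. The 54 genes summed to 226.75 counts in cEpiSC and 120.49 in mESC. Low genes leaned this way in general: of all 4789 listed genes below 1 CPM, 2307 had more counts in cEpiSC and 1120 in mESC, or 67.3% of those that differed, and their summed counts had a ratio of 1.58. The share among replication-dependent genes is near that of all low genes and is not a result about them. These are counts of few reads in 1 library a state, and no spread between cultures is known.

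**Figure D3:**
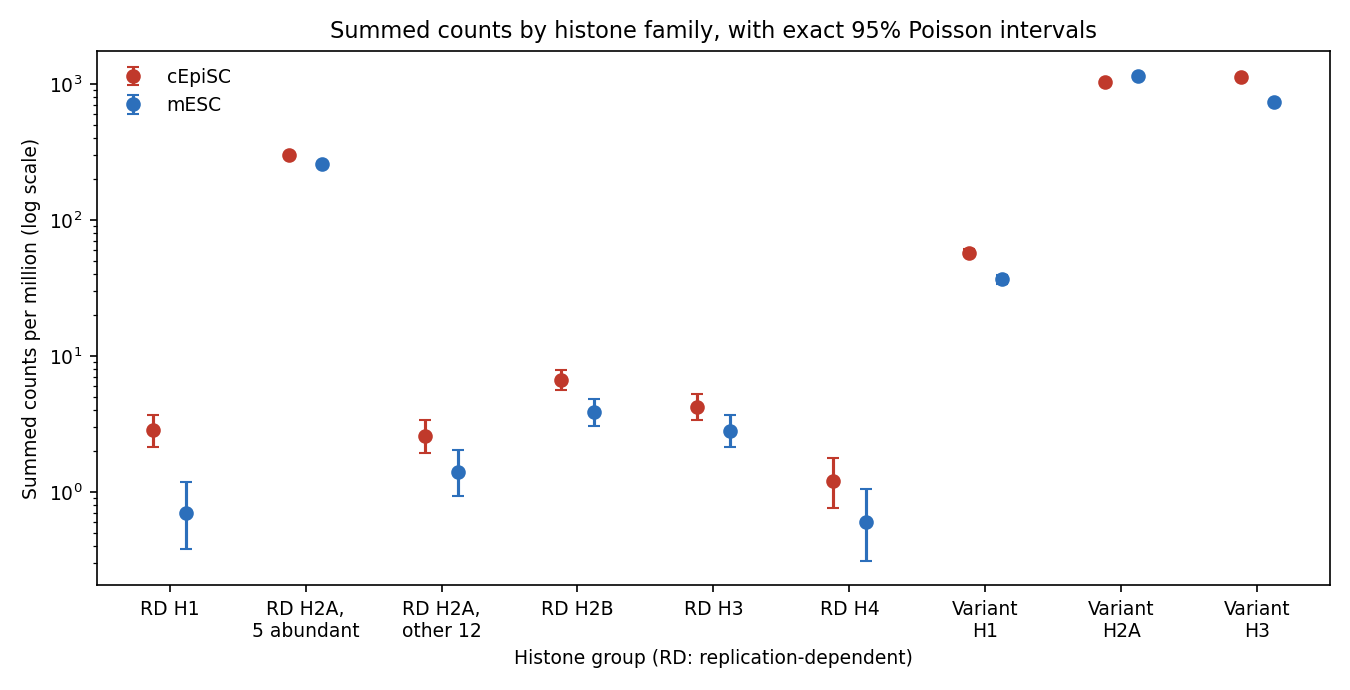
Summed counts of each histone group in every 1000000 library counts (log axis), cEpiSC (red) left of mESC (blue), with exact 95% Poisson intervals that cover counting error only. The replication-dependent H1 genes sit at 2.86 in cEpiSC and 0.706 in mESC, and variant H3 at 1122 in cEpiSC and 739 in mESC.

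Linker histones H1 bind the DNA between nucleosomes. Hist1h1a (chr13:23763668-23764412), which encodes H1.1, had 22 counts, 1.08 CPM and 2.87 TPM in cEpiSC, against 8 counts, 0.413 CPM and 1.14 TPM in mESC, a log2 ratio of 1.19 [0.16 to 2.76], and was called higher. The 6 replication-dependent H1 genes, all with whole counts, summed to 57 counts in cEpiSC and 14 in mESC, a depth-scaled ratio of 4.05 [2.23 to 7.87], the highest of the 5 families. The members behind it were low, with Hist1h1c at 14 and 0 counts, Hist1h1d at 11 and 2, Hist1h1e at 7 and 2, and Hist1h1b at 3 and 2 in cEpiSC and mESC. The names of these 4 were added with their values in view, for a full account of the family. The counts were higher in cEpiSC in each of the 5 genes that had any. Of all listed genes below 1 CPM whose counts differed, 67.3% had more in cEpiSC, and the summed ratio of such low genes was 1.58. The H1 sum also holds Hist1h1a, which reached 1 CPM in cEpiSC.

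H2B genes were recovered at low levels, although H2A and H2B enter the nucleosome as a dimer. Hist1h2bc (chr13:23684199-23692480) was the most abundant, with 49.39 counts, 2.39 CPM and 6.61 TPM in cEpiSC and 40.28 counts, 2.07 CPM and 5.89 TPM in mESC. Its log2 ratio of 0.20 [-0.42 to 0.85] is within counting error of no difference. Hist1h2bk (chr13:22035821-22036320) had 30.79 counts, 1.51 CPM and 6.44 TPM in cEpiSC, against 9.26 counts, 0.465 CPM and 2.11 TPM in mESC, a log2 ratio of 1.51 [0.60 to 2.96], the highest of the 19 tested histone genes. Its counts are not whole, and 70.8% of the windows of its GENCODE transcript occur in other genes, so this ratio is uncertain beyond its interval. The 16 replication-dependent H2B genes together had a depth-scaled ratio of 1.73 [1.298 to 2.32], beside 1.58 for all listed genes below 1 CPM. These sets are unlike, since the H2B sum also holds Hist1h2bc and Hist1h2bk, which reached 1 CPM.

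H3 and H4 form the central tetramer of the nucleosome. Hist1h3h (chr13:21717628-21718115), which encodes canonical H3, had 22.99 counts, 1.12 CPM and 4.95 TPM in cEpiSC, against 8.91 counts, 0.465 CPM and 2.09 TPM in mESC, a log2 ratio of 1.11 [0.11 to 2.57], and was called higher. In its GENCODE transcript, which is shorter than its RefSeq span, 92.0% of windows occur in other genes. The 11 replication-dependent H3 genes had a summed depth-scaled ratio of 1.51 [1.06 to 2.15], beside 1.58 for all listed genes below 1 CPM. The H3 sum also holds Hist1h3h, which reached 1 CPM in cEpiSC. No H4 gene reached 1 CPM, and the 13 of them together had 24.00 counts in cEpiSC and 11.99 in mESC, a ratio of 1.99 [0.957 to 4.37], which is within counting error of no difference. Hist1h2bk, Hist1h3h and Hist1h1a were called at a prior count of 2 and on CPM; with a prior count of 5, or on TPM or FPKM with a pseudocount of 1, Hist1h2bk was the 1 gene of the 9 tested replication-dependent ones that was called. With genes of non-whole counts left out, Hist1h2bk dropped out, and Hist1h1a was the 1 replication-dependent gene tested and called.

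Many H2A and H2B genes stand head to head, with a common stretch of DNA between their starts. There were 10 such pairs, with 167 to 267 bases between their RefSeq gene spans, and the H2A gene had the higher TPM in 8 of them in cEpiSC and in 7 in mESC. Hist1h2ad and Hist1h2bf, 173 bases apart, had 129.6 and 0 TPM in cEpiSC and 184 and 0 TPM in mESC. Hist1h2ap and Hist1h2br, 267 bases apart, had 550 and 2.22 TPM in cEpiSC and 387 and 1.07 TPM in mESC. The opposite order was seen for Hist1h2ac and Hist1h2bc, 239 bases apart, with 0 and 6.61 TPM in cEpiSC and 0 and 5.89 TPM in mESC. In the 5 pairs with an abundant H2A gene, the H2B neighbour stood at 6.44 TPM or less in cEpiSC and at 2.11 TPM or less in mESC.

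**Figure D4:**
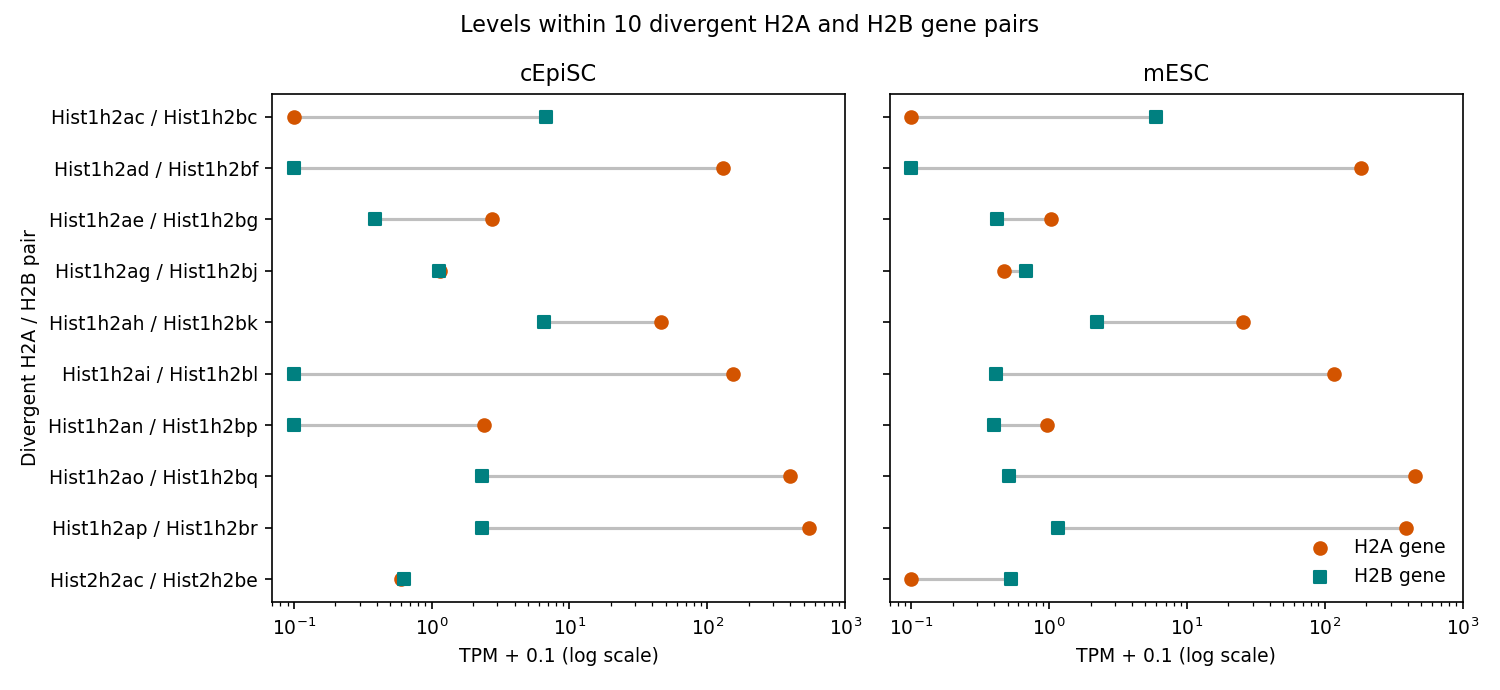
TPM plus 0.1 (log axis) of the H2A gene (orange circle) and the H2B gene (green square) in 10 divergent pairs, for cEpiSC (left) and mESC (right); a grey line joins the genes of a pair, and points at the left edge are listed at 0. The H2A gene is the higher one in 8 pairs in cEpiSC and in 7 pairs in mESC.

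The pair of Hist1h2ah and Hist1h2bk, 177 bases apart, had log2 ratios of 0.88 and 1.51. It was picked for display after these values were seen. Hist1h2ap and Hist1h2br (0.55 and 0.72), Hist1h2ag and Hist1h2bj (0.76 and 0.54) and Hist2h2ac and Hist2h2be (0.98 and 0.29) were also both above 0. Signs were opposite for Hist1h2ao and Hist1h2bq (-0.13 and 1.53) and for Hist1h2ai and Hist1h2bl (0.44 and -0.60). The same held for Hist1h2an and Hist1h2bp (1.21 and -0.60) and for Hist1h2ae and Hist1h2bg (1.13 and -0.03). Of the genes in these other pairs, only Hist1h2ap, Hist1h2ao and Hist1h2ai reached 1 CPM. The promoter of Hist1h2ah is shown beside that of Hist1h2ao, which was lower in cEpiSC. Both are RefSeq windows on GRCm38.p6, from 250 bases before to 50 bases after the start of the gene, in the direction of the H2A gene. Capitals mark ATTTGCAT (the octamer bound by POU factors), CCAAT and TATAAA on either strand; the motifs overlap nowhere in these windows.
Hist1h2ah promoter: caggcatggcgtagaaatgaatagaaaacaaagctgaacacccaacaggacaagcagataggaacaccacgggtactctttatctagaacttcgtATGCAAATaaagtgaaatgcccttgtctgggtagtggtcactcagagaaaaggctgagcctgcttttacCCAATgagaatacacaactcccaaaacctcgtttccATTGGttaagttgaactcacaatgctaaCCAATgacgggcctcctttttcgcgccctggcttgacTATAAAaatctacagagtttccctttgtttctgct
Hist1h2ao promoter: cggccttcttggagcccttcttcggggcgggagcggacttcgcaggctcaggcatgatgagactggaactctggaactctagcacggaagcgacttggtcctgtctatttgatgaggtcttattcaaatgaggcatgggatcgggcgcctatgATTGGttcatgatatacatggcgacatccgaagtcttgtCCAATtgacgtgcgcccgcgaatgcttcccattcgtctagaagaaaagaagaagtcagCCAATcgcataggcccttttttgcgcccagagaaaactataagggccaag
The Hist1h2ah window (chr13:22035594-22035893, minus strand) holds 1 octamer, which reads ATGCAAAT on the strand printed, 3 CCAAT motifs and 1 TATAAA. It overlaps the window of Hist1h2bk by 277 bases, so the 2 genes share almost all of these letters. The Hist1h2ao window (chr13:21810117-21810416, plus strand) holds 3 CCAAT motifs and neither of the others, and 200 bases of it are identical to part of the Hist1h2ap window. Hist1h2ao and Hist1h2ap, which share these bases, had log2 ratios of opposite sign, both from counts that are not whole.

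Promoter windows were found for 70 of the 76 genes, and motif content followed the family. The octamer was present in 6 of 17 replication-dependent H2A genes and 6 of 14 H2B genes, in none of the 6 H1, 9 H3 and 12 H4 genes, and in 1 of 12 variants, H3f3b, beside 1.97% of the 27025 genes with a window. CCAAT was present in every replication-dependent H1, H2A, H2B and H3 window, in 3 of 12 H4 windows and in 8 of 12 variant windows, beside 41.1% of all genes. TATAAA was present in 32 of 58 replication-dependent genes and in 1 of 12 variants, beside 15.7% of all genes. These matches describe the windows only.

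The replacement variants covered a wide range, and their largest difference was in macroH2A. H2afy (chr13:56073622-56135626) encodes macroH2A1, an H2A with a large extra domain that is found on the inactive X chromosome and other repressed chromatin. It had 2318 counts, 113 CPM and 105 TPM in cEpiSC, against 5572 counts, 288 CPM and 275 TPM in mESC, a log2 ratio of -1.35 [-1.42 to -1.28], or 2.54-fold lower in cEpiSC, and was the histone gene called lower. Its counts are whole and none of its windows occurs in another gene. H2afy2 (chr10:61738640-61784604), which encodes the related macroH2A2, had 1102.60 counts, 53.9 CPM and 49.5 TPM in cEpiSC, against 1454.15 counts, 75.1 CPM and 71.4 TPM in mESC, a log2 ratio of -0.48 [-0.59 to -0.37]. Together they had a depth-scaled ratio of 0.484 [0.465 to 0.504], and the TPM of H2afy over that of H2afy2 was 2.11 in cEpiSC and 3.85 in mESC.

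H3.3, the H3 that is placed outside replication, is made from 2 genes that encode the same protein. H3f3a (chr1:180802560-180813605) had 13174.26 counts, 644 CPM and 1126 TPM in cEpiSC, against 7660.29 counts, 396 CPM and 715 TPM in mESC, a log2 ratio of 0.70 [0.66 to 0.74]. H3f3b (chr11:116021961-116026039) had 9222 counts, 451 CPM and 411 TPM in cEpiSC, against 6996 counts, 362 CPM and 341 TPM in mESC, a log2 ratio of 0.32 [0.27 to 0.36]. Both were thus higher in cEpiSC by less than 2-fold, beyond counting error, and the TPM of H3f3a over that of H3f3b was 2.74 in cEpiSC and 2.10 in mESC. H3f3a is the histone gene with the highest TPM in cEpiSC, while H2afz is in mESC. Some of the H3f3a sequence (5.64% of windows) occurs in other loci, H3f3c and pseudogenes among them, and its count is not whole. Together the H3.3 genes held 44.2% of all histone counts in cEpiSC and 33.7% in mESC.

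H2A.Z marks promoters and enhancers and is also made from 2 genes, which differed between the libraries in opposite directions. H2afz (chr3:137864487-137866922), which encodes H2A.Z.1, had 8067 counts, 394 CPM and 702 TPM in cEpiSC, against 8765 counts, 453 CPM and 833 TPM in mESC, a log2 ratio of -0.20 [-0.24 to -0.16]. H2afv (chr11:6427226-6444511), which encodes H2A.Z.2, had 2109 counts, 103 CPM and 117 TPM in cEpiSC, against 1458 counts, 75.3 CPM and 87.9 TPM in mESC, a log2 ratio of 0.45 [0.35 to 0.55]. The TPM of H2afz over that of H2afv was accordingly 6.02 in cEpiSC and 9.48 in mESC. Their summed counts were nearly equal, at 10176 in cEpiSC and 10223 in mESC, a depth-scaled ratio of 0.990 [0.963 to 1.02].

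H2afx (chr9:44334715-44336077) encodes H2A.X, which is phosphorylated beside DNA breaks; its gene is known to give both a stem-loop message and a longer polyadenylated one. It had 5809.27 counts, 284 CPM and 388 TPM in cEpiSC, against 4370.47 counts, 226 CPM and 319 TPM in mESC, a log2 ratio of 0.33 [0.27 to 0.39]. H2afj (chr6:136808248-136810074), a variant close to canonical H2A, had 1327 counts, 64.8 CPM and 64.9 TPM in cEpiSC, against 1160 counts, 59.9 CPM and 62.0 TPM in mESC, a log2 ratio of 0.11 [-0.00 to 0.23], which is within counting error of no difference. Over the 6 variant H2A genes the share of all histone counts was 40.9% in cEpiSC and 52.4% in mESC.

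Linker variants were more abundant in this library type than the replication-dependent H1 genes. H1fx (chr6:87980421-87981482), which encodes H1.10, had 796 counts, 38.9 CPM and 69.7 TPM in cEpiSC, against 425 counts, 22.0 CPM and 40.7 TPM in mESC, a log2 ratio of 0.82 [0.65 to 1.00]. H1f0 (chr15:79028212-79030504), which encodes H1.0, a form known from cells that have stopped dividing, had 352 counts, 17.2 CPM and 13.6 TPM in cEpiSC and 303 counts, 15.7 CPM and 12.8 TPM in mESC. Its log2 ratio of 0.13 [-0.09 to 0.36] is within counting error of no difference. Besides H3f3c, the variants below 1 CPM were the oocyte linker histone H1foo, with 1 count in cEpiSC and 0 in mESC, and H2bfm, with 7 counts in cEpiSC and 8 in mESC; these are named to complete the class.

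**Figure D5:**
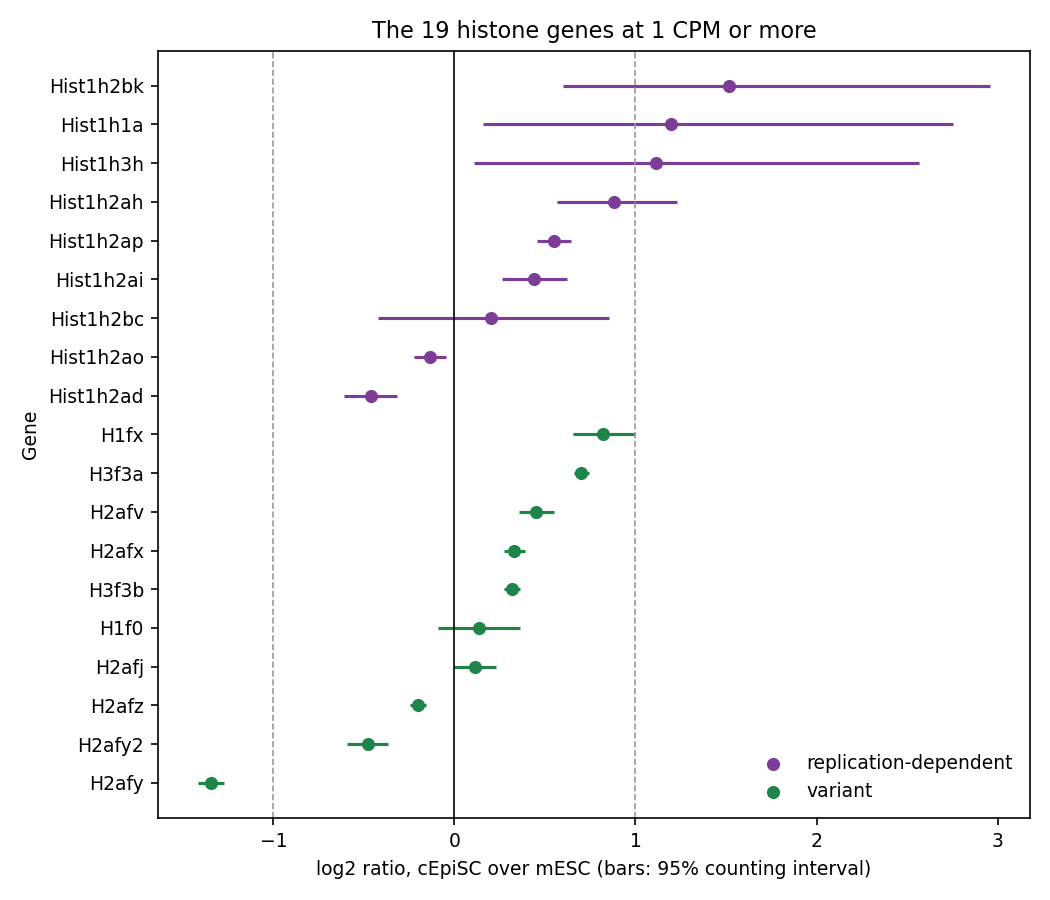
Log2 ratio of cEpiSC over mESC for the 19 histone genes at 1 CPM or more in a library (points), with exact 95% intervals for counting error (bars); replication-dependent genes stand above variants, the solid line marks no difference and the dashed lines 2-fold. Hist1h2bk, Hist1h1a and Hist1h3h lie beyond the upper line with wide intervals, and H2afy lies beyond the lower line at -1.35.

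Genes that act on histones or on the tails of messages were mostly within 2-fold, as were most genes (22.8% of all tested genes were called). Of 18 tested genes for the processing and decay of histone messages none was called, 15 had a ratio below 0 (51.2% of all tested genes did), and the median log2 ratio was -0.31. By the CPM of the library where each was higher, which was mESC, the most abundant were Upf1, a helicase of message decay, with 233 CPM in cEpiSC and 294 CPM in mESC (log2 ratio -0.34), and Xrn2, an exonuclease, with 117 CPM in cEpiSC and 199 CPM in mESC (-0.77). Slbp, named after its values were seen because it encodes the stem-loop binding protein, had 116 CPM in cEpiSC and 153 CPM in mESC, a log2 ratio of -0.40 [-0.48 to -0.32]. Among 16 polyadenylation genes none was called and the median was -0.11; Pabpc1, a poly(A) binding protein, had 2306 CPM in cEpiSC and 3380 CPM in mESC, and Pabpc4, a relative, 469 CPM in cEpiSC and 532 CPM in mESC. The part of these genes in the histone values was not tested.

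Of 24 genes of S phase none was called, and the median log2 ratio was 0.02. Their most abundant members were subunits of the replicative helicase: Mcm2 had 831 CPM in cEpiSC and 906 CPM in mESC, and Mcm7 697 CPM in cEpiSC and 628 CPM in mESC. Of 31 histone chaperones and remodellers 29 were within 2-fold and the median was -0.07. Npm2, a chaperone known from eggs, was the higher one, with 36.02 counts in cEpiSC and 1 in mESC (log2 ratio 3.61 [2.52 to 10.4]). Srcap, the motor of a complex that places H2A.Z, was the lower one, with 107 CPM in cEpiSC and 253 CPM in mESC (-1.24 [-1.31 to -1.17]). Cenpa, the H3 variant of centromeres, whose symbol lies outside the histone prefixes, had 153 CPM in cEpiSC and 95.6 CPM in mESC, a log2 ratio of 0.68 [0.60 to 0.77].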

How the data were processed

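Polyadenylated RNA of 1 cEpiSC and 1 mESC culture was sequenced with paired reads after dUTP marking of the second strand, per the labels' protocols. RSEM 1.3.1, HISAT2, Bowtie2, DESeq2 1.34.0 and the build GRCm38.p6 appear in the submitters' processing notes. What each tool did, the annotation, any filter and the use of strand in counting are not given in the sources used. Per the file headers, the authors deposited read counts, TPM and FPKM. The read counts deposited by the authors were taken as estimated counts, since some are not whole (13.7% of listed genes). They were taken as unscaled, since most are whole. The authors' TPM and FPKM are scaled by length and depth.

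Here the estimated counts were rounded and scaled by TMM in edgeR 4.0.16 (R 4.3.3). Log2 ratios used a prior count of 2; their intervals are Clopper-Pearson intervals of the ratio without it. Summed counts were divided by library totals, with exact Poisson intervals of 95%. PCR reads are not independent molecules, so intervals and the floor of 3 counts cover counting error only. On simulated counts the size rule was tested and recovered the genes that had been changed. These counts held no variation between cultures. Each change was set beyond 2-fold and beyond the ratio of H2afy, so recovery was largely fixed by the design. All changed genes there had a higher mean level than the replication-dependent genes called higher here. The simulation therefore covers neither those calls nor that of H2afy. DESeq2 1.42.0 gave alternative size factors.

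The members and gene lists were chosen with earlier results of these data known. Every histone gene at 1 CPM or more in a library is named, and of each list of histone-related genes up to 4 genes at 2-fold or more with the largest ratios, or else the 2 with the highest CPM in either library. Other names were chosen after their values were seen. The naive, primed and other cell type markers named under the same rule were Tfcp2l1, Tbx3, Klf4, Prdm14, Fgf5, Pou3f1, Otx2, Dnmt3b, Lin28a, Thy1, Pdgfrb, Dab2, Gata4, Dazl and Ddx4; those not described in the results are covered there by their list's count. Coordinates (1-based) and promoters are from RefSeq tables of GRCm38.p6, joined by Entrez identifier, and transcripts from GENCODE vM21. A list of RNAs without a poly(A) tail (12 genes) had 0 members among the listed genes and was not analysed here.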

Additional observations from a re-analysis of the deposited data

How the results depend on the processing

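No paired analysis was possible because each state has 1 library, and for the same reason no replicate could be left out. Over 13 summary values and their alternatives, 71 alternative values stayed on the side of the stated one and close to it, 28 moved and 2 changed direction. The histone genes called higher (3 among replication-dependent genes and 3 in all) became 18 and 18 with no filter on low counts, 0 and 0 with a filter at 5 CPM, and 1 and 1 with a prior count of 5, with TPM, with FPKM (pseudocount 1 each) and without genes whose counts are not whole. With no filter, 4 replication-dependent genes and 5 histone genes in all were lower. The median log2 ratio of replication-dependent genes was 0.44 with a filter at 5 CPM and 1.19 (1 gene) without genes of non-whole counts; that of all histone genes was 0.45 with no filter and 0.23 without genes of non-whole counts. The summed ratio of cEpiSC over mESC was 1.11 by TPM and 1.10 by TMM for all histone genes, 1.12 by TPM and 1.12 by TMM for replication-dependent genes, and 1.10 by TPM and 1.10 by TMM for variants. Without genes whose counts are not whole, it was 0.977 for all histone genes and 0.975 for variants, both reversed, where H3f3a and H2afx are among those left out, and 2.14 for replication-dependent genes; without the 5 abundant H2A genes, it was 1.87. Leaving out the H1 genes as well gave 1.28 with genes of whole counts and 1.70 without the 5; these last 3 alternatives were chosen after seeing the data. Calls of replication-dependent genes rest on 22 to 31 counts in cEpiSC and 8 to 9 in mESC, so depth limits them. The call of H2afy rests on 2318 counts in cEpiSC and 5572 in mESC. Like the others it comes from 1 library per state, so variation between cultures is unknown for it too.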
